A study of Mus musculus with 48 samples.

Results

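The 7 genes described here are the receptors that bind glucocorticoids, the enzyme that regenerates the hormone inside cells, and transcripts that glucocorticoids are known to induce. They were named by symbol in a fixed list (Fkbp5, Zbtb16, Tsc22d3, Sgk1, Nr3c1, Nr3c2 and Hsd11b1) and are 7 of the 18193 genes measured. Of the probe sets annotated to 1 gene alone, the brightest on average across the 48 arrays stood for that gene, and its other probe sets served as a check. That rule uses no difference between conditions. The 7 genes and the further lists used below were, however, chosen with earlier results of these data known. Their counts beside the shares of all genes are therefore descriptions.

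Glucocorticoids enter the cell and bind the glucocorticoid receptor (Nr3c1) or, with higher affinity, the mineralocorticoid receptor (Nr3c2), which then bind DNA and switch target genes on or off. Hsd11b1 encodes the reductase that turns the inactive 11-keto steroid back into active hormone. In nocturnal rodents circulating corticosterone has a daily rhythm that is high around dusk, and Fkbp5, Zbtb16, Tsc22d3 and Sgk1 are widely used as readouts of exposure to it.

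The pars tuberalis is the thin sheet of pituitary tissue around the median eminence that reads the melatonin signal of day length. It was punched from brain slices of male CBA/N mice, and RNA of 25 pooled mice was hybridised to each array. There were 24 groups of 2 arrays, 4 light conditions by 6 times of day every 4 h, given as ZT, hours on the scale in which short-day lights came on at ZT0. All mice had lived for 3 weeks in 8 h of light per day before the conditions diverged.

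Long-day mice then spent 2 weeks in 16 h of light per day with lights on at ZT0 of their own cycle, and were 8 weeks old. Delay mice were 6 weeks old and were sampled on their first day with 16 h of light, made by keeping the lights on from ZT8 to ZT16. Advance mice, also 6 weeks old, were sampled on a first day with 16 h of light in which lights came on early, at ZT16 of the short-day scale, and by the stated light hours went off at ZT8. Short-day mice stayed in 8 h of light per day, with lights off at ZT8, and were 8 weeks old. The strain carries no labelled allele or drug, and because delay and advance mice were younger than short-day mice, these were compared in the shape of their day and not in their day means. The whole procedure was run 2 times, and no label says more about how separate the repeats were, so the p-values measure the spread between pools.

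Values are log2 signals, on which a difference of 1 is a 2-fold difference. Array medians ran from 6.98 to 7.03. Of all genes, 46.7% differed between long and short days, so a day-mean difference there was common. The actin 3' minus 5' log2 signal, a sign of RNA quality, averaged 1.65 ± 0.12 in long-day, 1.85 ± 0.13 in delay, 1.69 ± 0.09 in advance and 1.89 ± 0.12 in short-day arrays (SD, n = 12 each). Growth hormone or prolactin exceeded a log2 level of 10, a sign of neighbouring pars distalis in the punch, on 6 arrays, 3 of them long-day, 1 delay, 1 advance and 1 short-day. The replicates of long-day ZT16 and ZT20 disagreed with each other: over 9 clock genes their root mean square difference was 0.664 at ZT16 and 0.675 at ZT20, and the next largest of the 24 groups was long-day ZT12 at 0.257. Results that rest on these groups are therefore given with and without the second replicate of both (the doubted arrays). The difference does not show which replicate of a pair is off, and leaving out the first replicate of both was not tested.

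On this scale Nr3c1 had a mean of 11.31, Tsc22d3 of 10.91, Sgk1 of 10.29, Fkbp5 of 9.79, Hsd11b1 of 9.21, Zbtb16 of 8.77 and Nr3c2 of 8.00. All 7 lay above 64.2% of probe sets. A probe set's signal also depends on its probes, so these means place no gene's transcript above another's. Across the 24 group means the largest span was that of Zbtb16, 2.31 log2 units, followed by Fkbp5 with 1.44, Tsc22d3 with 0.96 and Sgk1 with 0.72. Hsd11b1 spanned 0.55, Nr3c2 0.44 and Nr3c1 0.21. The 4 hormone-induced genes thus had wider spans than the receptors and the enzyme.

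Sequence before annotated start sites was searched for the element the receptor binds, since the 4 induced genes move together. RefSeq windows (GRCm38.p6, the C57BL/6J reference and not CBA/N) ran from 250 bases before to 50 after a start. They were searched for 5 of the 7 genes, 12 windows in all. Zbtb16, 1 of the 4 induced genes, and Nr3c1 were not searched. The full palindrome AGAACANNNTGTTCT, searched on both strands, was in 1 of these 12 windows, a window of Sgk1. It was in 3 of 32851 windows of all genes, 0.00913%. The Sgk1 match starts 189 bases before a start site at chr10:21993890, inside the annotated span of the gene, and 965 bases before the next annotated start. The 250 bases before that start site, chr10:21993640-21993889 on the plus strand, are shown because they hold the match, whose 15 bases at chr10:21993701-21993715 are in capitals.

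Sgk1: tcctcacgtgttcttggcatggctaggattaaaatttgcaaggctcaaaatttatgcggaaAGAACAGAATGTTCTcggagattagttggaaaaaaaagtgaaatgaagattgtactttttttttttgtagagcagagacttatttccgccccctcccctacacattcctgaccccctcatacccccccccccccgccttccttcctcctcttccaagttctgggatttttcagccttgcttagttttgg

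The half-site TGTTCT alone is in 6233 of the 32851 windows and is part of the palindrome, so each full match also counts for it. The single window of Fkbp5, the gene whose rise of ZT12 and ZT16 over the earlier times in delay exceeded that of short days with any 1 array of these conditions left out, held neither the palindrome nor the half-site. It held 1 CACGTG, an E-box of the kind that clock activators bind, which is in 7.15% of windows. The Sgk1 window printed above also holds 1 CACGTG, left in lower case near its 5′ end. The 250 bases before the Fkbp5 start are chr17:28486150-28486399 on the minus strand, and so lie before the first base of the gene. They are shown with the 6 letters of the E-box in capitals.

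Fkbp5: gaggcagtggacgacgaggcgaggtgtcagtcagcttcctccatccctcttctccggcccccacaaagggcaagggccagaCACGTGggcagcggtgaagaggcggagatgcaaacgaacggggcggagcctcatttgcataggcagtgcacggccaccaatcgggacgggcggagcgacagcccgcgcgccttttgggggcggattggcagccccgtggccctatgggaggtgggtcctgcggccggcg

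A match or its absence describes letters in this window and nothing about binding. The motif TGACGTCA, the cAMP response element found in 1.79% of windows, was in none of the 12.

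Fkbp5 encodes an immunophilin co-chaperone that holds the receptor in a state of lower hormone affinity. Under long days it read 9.36 and 9.41 at ZT0, 9.28 and 9.08 at ZT4, 9.12 and 9.08 at ZT8, 9.38 and 9.54 at ZT12, 10.03 and 9.52 at ZT16, and 9.86 and 10.12 at ZT20. Under short days it read 9.71 and 9.55 at ZT0, 10.24 and 9.73 at ZT4, 10.34 and 10.26 at ZT8, 10.07 and 9.87 at ZT12, 9.64 and 9.66 at ZT16, and 9.89 and 9.80 at ZT20. Long-day arrays lay below both short-day arrays at ZT0, ZT4, ZT8 and ZT12, and overlapped them at ZT16 and ZT20. The time of the highest mean under short days, ZT8, was the time of the lowest under long days.

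In delay Fkbp5 read 9.82 and 9.77 at ZT0, 9.59 and 9.32 at ZT4, 9.86 and 9.64 at ZT8, 10.58 and 10.37 at ZT12, 10.18 and 9.88 at ZT16, and 9.64 and 9.52 at ZT20. In advance it read 9.57 and 9.47 at ZT0, 9.96 and 9.87 at ZT4, 10.66 and 10.43 at ZT8, 10.16 and 10.22 at ZT12, 9.86 and 9.73 at ZT16, and 9.56 and 9.63 at ZT20. Delay arrays lay above both short-day arrays at ZT0, ZT12 and ZT16 and below both at ZT4, ZT8 and ZT20, so the groups also did not overlap at ZT0 and ZT4, before the added light. Advance kept the short-day time of the highest level, ZT8.

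Zbtb16 encodes a zinc finger repressor that is strongly induced by glucocorticoids in many tissues. Under long days it read 8.66 and 8.82 at ZT0, 8.30 and 8.25 at ZT4, 8.31 and 8.38 at ZT8, 8.75 and 9.58 at ZT12, 9.93 and 8.86 at ZT16, and 9.03 and 10.20 at ZT20. Under short days it read 7.82 and 7.68 at ZT0, 8.35 and 8.35 at ZT4, 9.32 and 9.41 at ZT8, 8.94 and 9.06 at ZT12, 8.39 and 8.13 at ZT16, and 8.20 and 8.37 at ZT20. Long-day arrays lay above the short-day ones at ZT0, ZT16 and ZT20 and below them at ZT4 and ZT8, while at ZT12 the long-day pair lay on either side of the short-day pair.

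In delay Zbtb16 read 8.55 and 8.50 at ZT0, 8.23 and 8.21 at ZT4, 8.56 and 8.23 at ZT8, 9.56 and 9.59 at ZT12, 9.05 and 8.79 at ZT16, and 7.88 and 8.14 at ZT20. In advance it read 8.50 and 8.54 at ZT0, 9.06 and 9.15 at ZT4, 10.06 and 10.06 at ZT8, 9.28 and 9.30 at ZT12, 8.91 and 8.91 at ZT16, and 8.33 and 8.40 at ZT20. The highest times were again ZT12 in delay and ZT8 in advance and short days. Within a condition the span of the means was 2.53-fold in long days, 2.96-fold in delay, 3.24-fold in advance and 3.05-fold in short days, the largest of the 7 genes in each condition.

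Tsc22d3 encodes GILZ, a leucine zipper protein that carries part of the anti-inflammatory action of the hormone. Under long days it read 11.07 and 10.92 at ZT0, 10.85 and 10.66 at ZT4, 10.64 and 10.80 at ZT8, 10.87 and 11.13 at ZT12, 11.36 and 11.18 at ZT16, and 11.13 and 11.57 at ZT20. Under short days it read 10.53 and 10.26 at ZT0, 11.004 and 10.85 at ZT4, 10.96 and 11.18 at ZT8, 11.13 and 11.17 at ZT12, 10.95 and 10.62 at ZT16, and 10.84 and 10.62 at ZT20. Both long-day arrays were higher than both short-day arrays at ZT0, ZT16 and ZT20, and lower at ZT4, ZT8 and ZT12, at ZT4 and ZT12 by narrow gaps.

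In delay Tsc22d3 read 10.42 and 10.65 at ZT0, 10.60 and 10.60 at ZT4, 10.82 and 10.81 at ZT8, 11.11 and 11.38 at ZT12, 10.68 and 11.03 at ZT16, and 10.74 and 11.04 at ZT20. In advance it read 10.71 and 10.65 at ZT0, 10.97 and 10.94 at ZT4, 11.41 and 11.22 at ZT8, 11.11 and 11.11 at ZT12, 11.29 and 11.12 at ZT16, and 10.61 and 10.57 at ZT20. Its highest means were at ZT12 in delay and ZT8 in advance, with a span of 1.63-fold in delay and 1.66-fold in advance, against 1.69-fold in short days.

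Sgk1 encodes a kinase that regulates ion channels and transporters and that serum, salt and glucocorticoids induce. In delay it read 10.23 and 10.31 at ZT0, 10.06 and 9.98 at ZT4, 10.21 and 10.31 at ZT8, 10.77 and 10.66 at ZT12, 10.20 and 10.26 at ZT16, and 10.06 and 10.50 at ZT20. Under short days its 12 arrays ran from 9.98 to 10.46 with a median of 10.25, with the lowest pair, 10.06 and 9.98, at ZT0. Under long days they ran from 9.92 to 10.64 with a median of 10.20, and in advance from 10.24 to 10.66 with a median of 10.41. The delay ZT12 pair lay above all 12 short-day and all 12 long-day arrays.

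**Figure D1:**
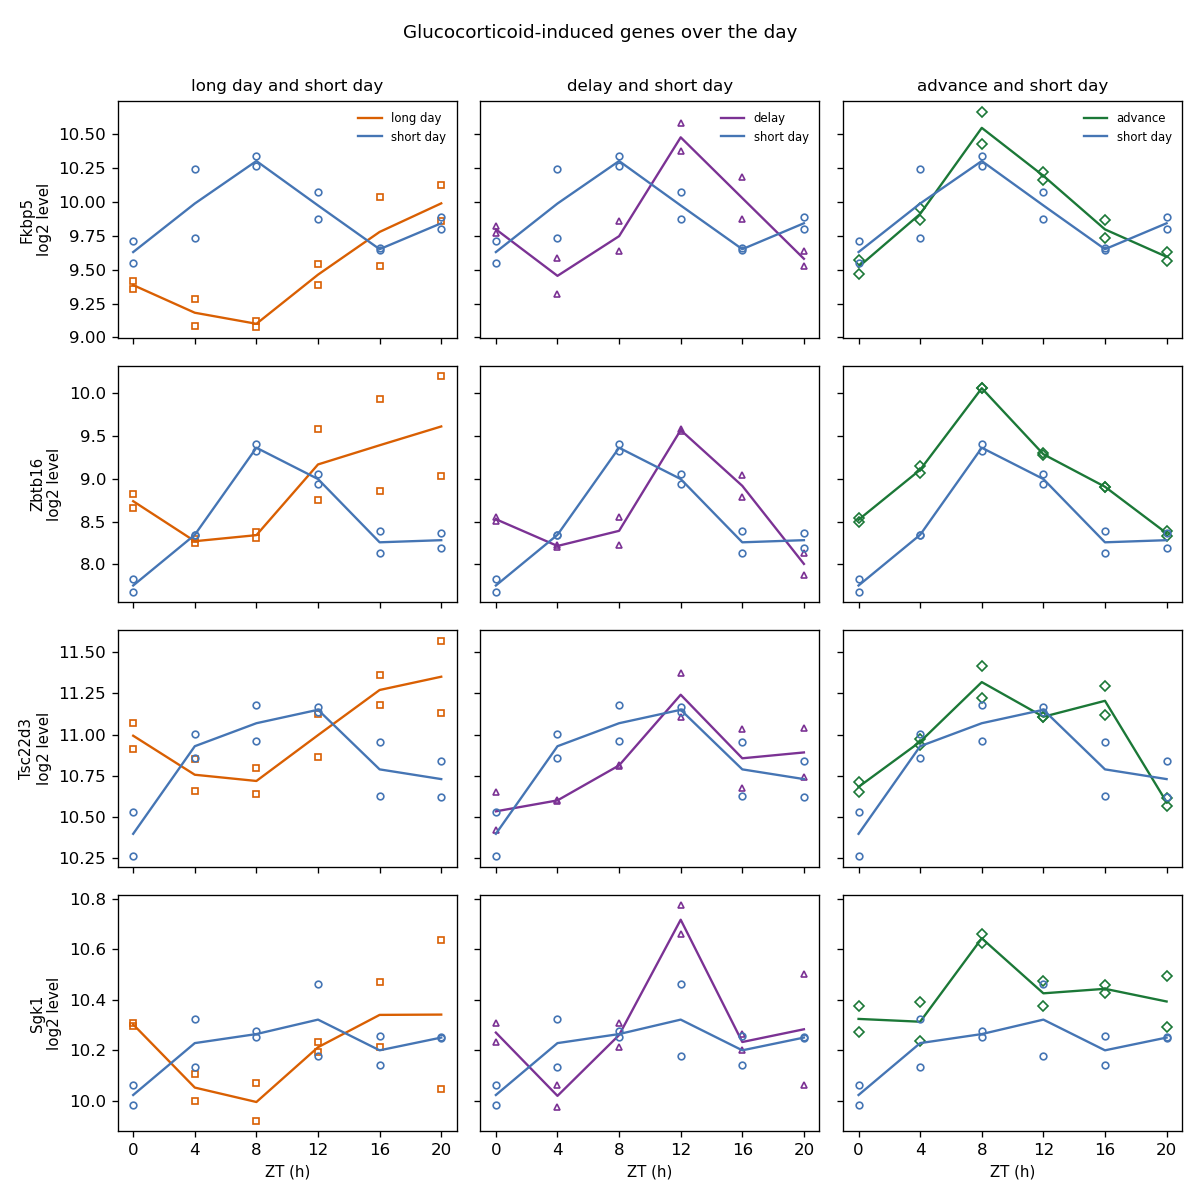
Log2 level (vertical axis) against ZT in hours for Fkbp5, Zbtb16, Tsc22d3 and Sgk1, with long day, delay and advance each set beside the same short-day arrays. Open marks are single arrays (2 per group) and lines join the group means. Fkbp5 under long days is lowest at ZT8, where short days are highest, and in delay the highest mean of all 4 genes is at ZT12.

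Each condition was tested for variation over the day with an F test over the 6 times. Under long days 3 of the 7 genes passed an adjusted p of 0.05, against 1.63% of all genes: Fkbp5 (limma adjusted p = 0.000401), Zbtb16 (0.00104) and Tsc22d3 (0.0147). In delay 4 passed, against 1.52%: Fkbp5 (limma adjusted p = 0.000183), Zbtb16 (0.00108), Tsc22d3 (0.0219) and Sgk1 (0.0286). In advance 3 passed, against 2.58%: Fkbp5 (limma adjusted p = 2.19e-05), Zbtb16 (0.000111) and Tsc22d3 (0.00187). Under short days 4 passed, against 8.91%: Zbtb16 (limma adjusted p = 0.000307), Tsc22d3 (0.00364), Nr3c2 (0.00481) and Fkbp5 (0.0102). Fkbp5, Zbtb16 and Tsc22d3 thus passed in all 4 conditions.

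Without the doubted arrays Fkbp5 (limma adjusted p = 0.000503) and Zbtb16 (6.32e-07) still passed under long days and Tsc22d3 did not (0.081). Without the 6 arrays high in growth hormone or prolactin, Tsc22d3 under long days had an adjusted p of 0.361 (limma) and Sgk1 in delay one of 0.0636. The Sgk1 call in delay was lost without any 1 of 4 arrays, delay ZT4 or ZT12 of either replicate, with limma adjusted p of 0.0661 to 0.352. The Tsc22d3 call was lost under long days without ZT4 replicate 2, ZT8 replicate 1 or ZT20 replicate 2, with limma adjusted p of 0.0543 to 0.0644. In delay the Tsc22d3 call was lost without ZT0 replicate 1, ZT4 replicate 2 or ZT12 replicate 2 (0.051 to 0.238), and under short days without ZT0 replicate 2 (0.0589). That of Fkbp5 under short days was lost without ZT8 replicate 1 (0.0525). Calls were also lost with the arrays of the condition alone in the fit. Under short days the adjusted p (limma) was then 0.17 for Fkbp5, 0.0976 for Tsc22d3 and 0.293 for Nr3c2. Under long days it was 0.292 for Zbtb16 and 0.139 for Tsc22d3, and in delay 0.151 for Tsc22d3 and 0.134 for Sgk1.

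Other probe sets of these genes did not all follow. For Zbtb16 the dimmest probe set, with a mean of 6.92, passed in all 4 conditions with the same highest times, ZT20 under long days, ZT12 in delay, and ZT8 in advance and short days. The other, with a mean of 7.40, passed under short days alone (limma adjusted p = 0.017). Neither other probe set of Fkbp5, with means of 7.15 and 3.66, and none of the 3 of Tsc22d3, with means of 8.49, 7.64 and 5.83, passed in any condition. The lower Fkbp5 probe set is dimmer than the first quartile of every array. The brighter of the pair had its highest mean at ZT20 under long days and ZT12 in delay, as the main probe set did, but at ZT12 and not ZT8 in advance and short days. Each ZT20 mean of long days includes a doubted array. Without the doubted arrays the main probe sets of Fkbp5 and Zbtb16 were highest under long days at ZT16.

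A 24 h cosine was fitted to each gene and condition as a description of timing. Under long days the fitted peak was at ZT 18.2 ± 0.634 h for Fkbp5, 17.4 ± 0.991 h for Zbtb16, 18.2 ± 0.695 h for Tsc22d3 and 18.8 ± 1.37 h for Sgk1 (SE, 12 arrays). Under short days it was at ZT 8.03 ± 1.19 h, 9.99 ± 0.66 h, 10.3 ± 0.877 h and 11.5 ± 1.82 h in the same order. Without the doubted arrays the 4 long-day peaks were at ZT 17.7, 16.7, 17.8 and 18.1. In delay the peaks were at ZT 13.2 ± 1.14 h, 12.7 ± 1.22 h, 13.3 ± 1.04 h and 13.4 ± 1.73 h. In advance they were at ZT 9.32 ± 0.467 h, 8.85 ± 0.431 h, 10.4 ± 0.712 h and 10.7 ± 1.77 h.

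Set against lights off, at ZT16 under long days and in delay and at ZT8 in advance and short days, the 4 peaks came 1.35 to 2.82 h after dark under long days. In advance they came 0.848 to 2.69 h after dark and under short days 0.0289 to 3.52 h after it. In delay the peak times minus lights off ran from -3.35 to -2.62 h, so all 4 genes peaked while the added light was still on. On the clock, where long-day lights came on 4 h earlier than short-day lights, Fkbp5 peaked at 21.2 h under long days, 20.2 h in delay and 15.03 h under short days. Zbtb16 peaked at 20.4 h, 19.7 h and 17.0 h, and Tsc22d3 at 21.2 h, 20.3 h and 17.3 h. Sgk1 peaked at 21.8 h, 20.4 h and 18.5 h. Its course passed the F test in delay alone, and did not pass there as a cosine (limma adjusted p = 0.149). For each gene the long-day and delay clock peaks differed by less than the SE of the delay peak. Without the doubted arrays the long-day Zbtb16 peak, at ZT 16.7 and not 17.4, came at about the same clock time as in delay.

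The daily course differed between long and short days for 4 of the 7 genes when ZT was matched, against 4.3% of all genes. These were Fkbp5 (limma adjusted p = 4.16e-05), Zbtb16 (5.99e-05), Tsc22d3 (0.000651) and Nr3c2 (0.0331), and all 4 passed without the doubted arrays as well (1.08e-05, 1.12e-08, 0.00112 and 0.0321). Nr3c2 did not pass without the arrays high in growth hormone or prolactin (limma adjusted p = 0.297). Nor did it when the fit used these conditions alone (0.297). Both other Zbtb16 probe sets passed with ZT matched (limma adjusted p = 0.0287 and 0.00023). None of the others of Tsc22d3 (0.125 to 0.662) or Fkbp5 (0.933 and 0.971) did. With clock time matched, Fkbp5 alone passed (limma adjusted p = 0.00269), against 0.467% of all genes. Its adjusted p was 0.0656 (limma) with these conditions alone in the fit, and its other probe sets gave 0.883 and 0.96. In the fit of all arrays Zbtb16 had an adjusted p of 0.154 (limma), Tsc22d3 of 0.241 and Nr3c2 of 0.098. Without the doubted arrays Zbtb16 passed with clock time matched (limma adjusted p = 0.0246) and Fkbp5 did so again (0.00271). Leaving out any 1 of long-day ZT12 replicate 2, ZT16 of either replicate or ZT20 replicate 1 also brought Zbtb16 past the threshold (0.00179 to 0.0402), and without the last of these Tsc22d3 passed too (0.0497). Nr3c2 passed it without short-day ZT16 replicate 1 (limma adjusted p = 0.046) or long-day ZT8 replicate 2 (0.0474).

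Averaged over the day, 4 of the 7 genes differed between long and short days, 3 higher and 1 lower, against 17.6% of all genes higher and 29.1% lower. Fkbp5 fell to 9.48 ± 0.35 under long days, against 9.90 ± 0.27 under short days (mean ± SD over 12 arrays, times of day included), a change of -0.41 ± 0.06 (SE, limma adjusted p = 2.63e-07). Zbtb16 rose to 8.92 ± 0.66 against 8.50 ± 0.56, a change of 0.42 ± 0.10 (limma adjusted p = 0.000566). Tsc22d3 rose to 11.01 ± 0.28 against 10.84 ± 0.28, a change of 0.17 ± 0.06 (limma adjusted p = 0.0121). The median change of the 7 was -0.01, beside -0.03 over all genes.

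Other probe sets did not repeat these day-mean changes. The other Fkbp5 probe sets gave 0.02 and 0.09 (limma adjusted p = 0.902 and 0.142). Of the other Zbtb16 probe sets one gave 0.05 (limma adjusted p = 0.702), and the other, whose daily course matched, gave -0.49 (6.37e-05). Of the other Tsc22d3 probe sets one fell, by 0.15 on the log2 scale (limma adjusted p = 0.0122), and the rest gave 0.10 (0.268) and -0.05 (0.41). With the actin signal as a covariate Fkbp5 changed by -0.39 (limma adjusted p = 0.000382) and Zbtb16 by 0.56 (0.0021), while Tsc22d3 gave 0.07 (0.54). Without the doubted arrays the changes were -0.39, 0.41 and 0.15, and all 3 passed (limma adjusted p of 5.72e-07, 3.93e-06 and 0.0318).

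Sgk1 did not pass between long and short days, with a change of -0.01 ± 0.05 (limma adjusted p = 0.931). Its only probe set averaged 10.21 ± 0.20 under long days and 10.21 ± 0.13 under short days (SD, 12 arrays). Its daily course also missed the threshold with ZT matched (limma adjusted p = 0.258), but passed without the doubted arrays (0.0437) or without long-day ZT20 replicate 1 (0.0307). Without that array its long-day course passed as well (limma adjusted p = 0.0237, and 0.456 with it).

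In delay the evening rise was tested against short days as a difference of differences, first as ZT12 minus ZT8. Only 7 of 18193 genes passed, 0.0385%, all of them higher, and Fkbp5 was 1 of the 7. Its step was larger in delay by 1.06 ± 0.20 log2 units, 2.08-fold (SE, limma adjusted p = 0.031). The other Fkbp5 probe sets gave steps of 0.02 and 0.08 (limma adjusted p = 0.998 and 0.983). Zbtb16 had a larger estimate, 1.54 ± 0.34, but an adjusted p of 0.125 (limma). Sgk1 gave 0.40 ± 0.18 (limma adjusted p = 0.636) and Tsc22d3 0.35 ± 0.20 (0.672), beside a median of 0.05 over all genes.

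For Fkbp5 and Zbtb16 much of the step lay at ZT8, which by the labels precedes the extra light. There the gap between delay and short days was larger than at ZT12. Fkbp5 averaged 9.75 in delay against 10.30 in short days at ZT8, and 10.48 in delay against 9.97 in short days at ZT12. Zbtb16 averaged 8.39 in delay against 9.36 in short days at ZT8, and 9.57 in delay against 8.999 in short days at ZT12. The delay mice were younger by label. At ZT8 the light did not yet differ by label, and at ZT12 age and light condition cannot be told apart. The Fkbp5 step also missed the threshold without any 1 of 6 of the 8 arrays it is made of (0.0578 to 0.454), both short-day ZT8 arrays, both short-day ZT12 arrays, delay ZT8 replicate 2 and delay ZT12 replicate 1. Without the 6 arrays high in growth hormone or prolactin its adjusted p was 0.24 (limma), with a step of 1.16. Zbtb16 passed without the doubted long-day arrays, which enter only the estimate of spread (limma adjusted p = 0.000433).

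The mean of ZT12 and ZT16 minus that of ZT0, ZT4 and ZT8 used all times under the added light. Of the 7 genes 3 passed this difference from short days, all higher, against 6.11% of all genes (5.16% higher and 0.951% lower). Fkbp5 was higher by 0.75 ± 0.13, 1.68-fold (SE, limma adjusted p = 0.00216), and passed without each of the 24 delay and short-day arrays in turn. Part of this difference lay before the added light. Delay means of Fkbp5 at ZT4 and ZT8 were 9.45 and 9.75, against 9.99 and 10.30 in short days. At ZT0 delay was the higher, 9.80 against 9.63. Zbtb16 was higher by 0.73 ± 0.22 (limma adjusted p = 0.0462). Nr3c2 was higher by 0.28 ± 0.08 (limma adjusted p = 0.0335), and among the times subtracted its short-day ZT4 pair was its highest.

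The Zbtb16 call lies at the threshold: it was lost without 1 array in 15 of the 24 cases (limma adjusted p up to 0.108), and that of Nr3c2 in 9 (up to 0.0885). With the actin signal as a covariate the adjusted p was 0.14 for Zbtb16 and 0.105 for Nr3c2 (limma), and without the arrays high in growth hormone or prolactin it was 0.15 and 0.18. The second Zbtb16 probe set with a rhythm gave 0.96 (limma adjusted p = 0.0276) and the third gave -0.05, while the other Fkbp5 probe sets gave no passing value and one of them was -0.01. Over the whole course of the day 3 genes differed between delay and short days, against 1.84% of all genes. They were Fkbp5 (limma adjusted p = 0.00163), Zbtb16 (0.0106) and Nr3c2 (0.0171). Without delay ZT8 replicate 2 that of Zbtb16 became 0.0537 (limma).

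**Figure D2:**
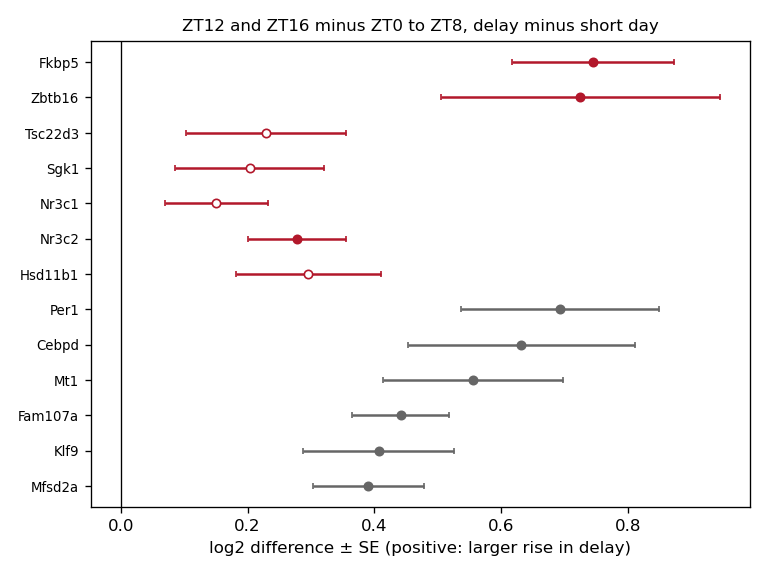
Difference from short days in the rise of ZT12 and ZT16 over ZT0 to ZT8 in delay, in log2 units with SE, for the 7 genes (red) and for the listed further induced genes that passed (grey). Filled marks passed an adjusted p of 0.05. Fkbp5 lies highest at 0.75, and the 6 grey genes lie between 0.39 and 0.69.

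In advance none of the 7 genes passed a test of difference from short days. For ZT20 minus ZT16, the first 4 h of early light, 0.22% of all genes and none of the 7 passed. At an unadjusted p of 0.05 the only one was Tsc22d3 (-0.56 ± 0.20, limma unadjusted p = 0.0073, adjusted p = 0.541). Fkbp5 gave -0.39 ± 0.20 (limma adjusted p = 0.803). For the whole course 0.308% of all genes and none of the 7 passed; the lowest was Nr3c2 (limma unadjusted p = 0.0233, adjusted p = 0.536). Zbtb16 passed when the fit used these conditions alone (limma adjusted p = 0.0418).

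Advance and delay mice were of the same age, so their day means could be compared. Of the 7 genes 3 differed, 2 higher and 1 lower in advance, against 24.1% of all genes (10.3% higher and 13.8% lower). Zbtb16 was higher in advance, 9.04 ± 0.58 against 8.61 ± 0.55 in delay, a change of 0.44 ± 0.10 (SE, limma adjusted p = 0.00129). Tsc22d3 was higher by 0.15 ± 0.06 (limma adjusted p = 0.0429), a call lost without 1 array in 17 of 24 cases (adjusted p up to 0.118) and with the actin covariate (0.427). Hsd11b1 was lower, by -0.19 ± 0.05 (limma adjusted p = 0.00642, and 0.0576 with the actin covariate). Sgk1 gave 0.13 ± 0.05 (limma adjusted p = 0.0757), and passed without delay ZT20 replicate 2 (0.0157) or without the doubted arrays (0.0265). Of the other Zbtb16 probe sets the one with the matching daily course gave -0.21 (limma adjusted p = 0.114), the opposite sign, and the one with a mean of 7.40 rose by 0.31 (0.00639). Of the other Tsc22d3 probe sets 1 rose, by 0.13 (limma adjusted p = 0.0361), and the rest gave 0.04 each (0.743 and 0.639). The daily course differed between advance and delay for Fkbp5 (limma adjusted p = 0.00176) and Zbtb16 (0.00497), 2 of 7 against 0.726% of all genes, and that of Zbtb16 became 0.057 without delay ZT8 replicate 2.

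Nr3c1, the glucocorticoid receptor, had the highest mean signal of the 7 and the smallest span over the 24 group means. Its arrays ran from 11.10 to 11.44 with a median of 11.27 under long days, from 11.16 to 11.46 (median 11.32) in delay, from 11.12 to 11.43 (median 11.30) in advance, and from 11.16 to 11.42 (median 11.34) under short days. It passed no test: the long minus short change was -0.03 ± 0.04 (SE, limma adjusted p = 0.478) and the advance minus delay change -0.01 ± 0.04 (0.821). Of its 5 other probe sets 1 rose under long days, by 0.34 (limma adjusted p = 0.00543), and the other 4 gave -0.06 to 0.13 with no call. For advance minus delay that probe set gave 0.13 (limma adjusted p = 0.381), a different one rose by 0.55 (0.000135) and another fell by 0.16 on the log2 scale (0.0218).

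Nr3c2, the mineralocorticoid receptor, had 1 pair of arrays apart from the rest. At ZT4 under short days it read 8.30 and 8.28, while the other 10 short-day arrays, at the other 5 times, ran from 7.75 to 8.02. At ZT4 it read 7.92 and 7.90 under long days, 7.94 and 7.95 in delay and 7.98 and 8.06 in advance. Over the day it ran from 7.77 to 8.09 under long days, from 7.94 to 8.16 in delay and from 7.91 to 8.06 in advance, and all of these lie below the short-day ZT4 pair. Its day mean did not pass between long and short days (-0.03 ± 0.03, limma adjusted p = 0.463). Its short-day course was lost without ZT4 replicate 1 (limma adjusted p = 0.0764), its course difference between long and short days without any 1 of 6 arrays (0.0654 to 0.13), and that between delay and short days without any 1 of 3 (0.0661 to 0.0822).

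Hsd11b1, the steroid reductase, was higher under long days. Its arrays ran from 9.02 to 9.52 with a median of 9.33 under long days and from 8.91 to 9.38 with a median of 9.08 under short days, so the ranges overlap. The change was 0.19 ± 0.05, 1.14-fold (SE, limma adjusted p = 0.00228), and it was 0.14 without the doubted arrays (0.0262) and 0.21 with the actin covariate (0.0305). In delay it read 9.26 and 9.24 at ZT0, 9.12 and 8.96 at ZT4, 9.09 and 9.27 at ZT8, 9.61 and 9.52 at ZT12, 9.43 and 9.49 at ZT16, and 9.36 and 9.48 at ZT20. The 6 arrays from ZT12 on were thus above the 6 before. The delay course missed the threshold (limma adjusted p = 0.0869), but passed as a 24 h cosine (0.017), without the doubted arrays (0.0461) and without the arrays high in growth hormone or prolactin (0.0463). The evening difference from short days was 0.30 ± 0.11 (limma adjusted p = 0.0982), and it passed without short-day ZT12 replicate 1 (0.0403).

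**Figure D3:**
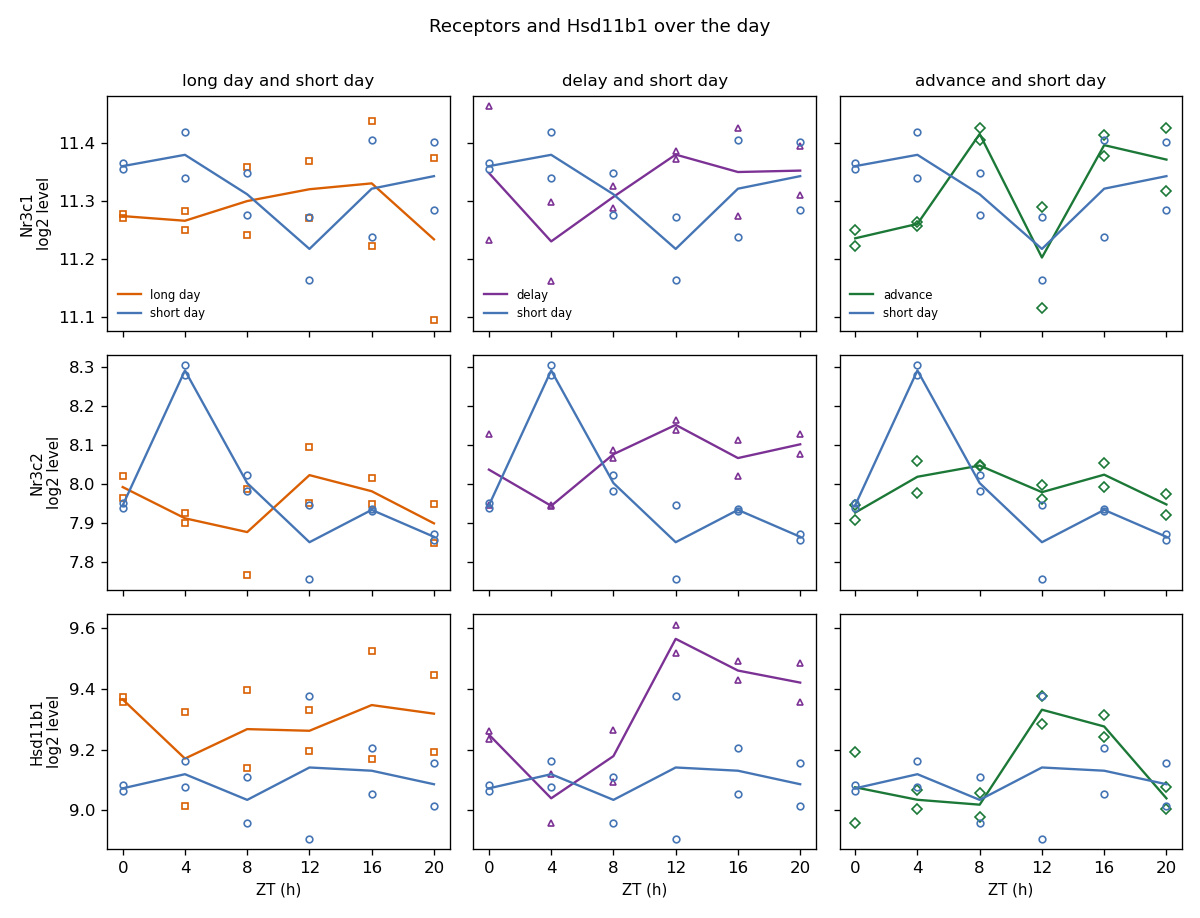
Log2 level against ZT in hours for Nr3c1, Nr3c2 and Hsd11b1, with long day, delay and advance each beside short day. Open marks are single arrays (2 per group) and lines join group means. Nr3c1 stays between 11.10 and 11.46, Nr3c2 stands out at ZT4 of short days alone, and Hsd11b1 in delay is highest at ZT12.

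Markers of the tissue and its neighbours differed between conditions too. The pars tuberalis list had 4 of 6 genes measured, of which 3 rose under long days, and its summed level (log2 of the summed signals) ran from 14.70 to 15.32 under long days against 13.48 to 14.37 under short days. Of 4 ependymal genes 3 fell, with a summed level of 9.43 to 9.72 under long days against 9.83 to 10.4 under short days. Of 7 neuron genes 4 fell and 1 rose under long days. Passing genes of the pars distalis, astrocyte, tanycyte, oligodendrocyte, endothelial, microglia and macrophage, and meninges and fibroblast lists went both ways. Of all genes 17.6% rose and 29.1% fell. Between advance and delay 3 of the 4 pars tuberalis genes were higher, with a summed level of 14.37 to 14.997 in advance against 13.85 to 14.36 in delay. All 5 meninges and fibroblast genes were higher in advance, with a summed level of 13.68 to 13.94 against 13.37 to 13.71 in delay. Of 7 neuron genes 4 were lower in advance, with a summed level of 13.83 to 14.19 against 14.001 to 14.21 in delay. Of all genes 10.3% were higher and 13.8% lower in advance. In the evening difference of delay from short days 1 of 7 neuron and 1 of 6 astrocyte genes passed, both higher. No gene of the other 10 lists did, and the share higher among all genes was 5.16%. No defining marker of the pars tuberalis list lay below the first quartile of the arrays, whereas Hba-a1 of the blood cell list did. In such bulk pools fewer cells of a type and less RNA per cell cannot be told apart, and the part of these markers in the day-mean changes was not tested.

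The daily patterns of the 4 induced genes were compared over the 24 group means after each condition's own mean was taken off. These points share conditions, pools and arrays, so the correlations are descriptions. Fkbp5 correlated with Zbtb16 at r = 0.945, with Tsc22d3 at 0.833 and with Sgk1 at 0.805. With Nr3c1, Nr3c2 and Hsd11b1 it correlated at 0.177, 0.356 and 0.403. Per1, a clock gene that glucocorticoids also induce, correlated with Fkbp5 at 0.805 and with Zbtb16 at 0.797.

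Among the 972 genes whose group means spanned at least 1 log2 unit, Zbtb16 was also the closest of all to Fkbp5. It was followed by Cables1, which encodes a cyclin-dependent kinase adaptor (r = 0.919), the calcium-dependent kinase gene Camk1g (0.919), Cth, the cystathionine gamma-lyase gene (0.902), and Tmem74 (0.887). Next came Ghsr, the ghrelin receptor gene (0.863), the mitochondrial carrier gene Slc25a33 (0.859) and the cadherin gene Cdh19 (0.842). Of these 8, Cables1, Camk1g, Cth, Ghsr and Zbtb16 were highest at the same times as Fkbp5 in all 4 conditions. The 8 were picked by correlation over these same means, so shared times partly follow from that choice. The long-day means include the doubted arrays. Zbtb16 was closest to Tmem74 (r = 0.956), then Fkbp5 and Camk1g (0.918).

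Tsc22d3 was closest to Cdh19 (r = 0.866), Zbtb16 (0.854) and Mkx (0.853), and Sgk1 to Fkbp5, Tcim (0.795) and Ccn2 (0.794). The receptors and Hsd11b1 had other neighbours. Nr3c1 was closest to Dlk1 (r = 0.699), Pcdh17 (0.639) and Col23a1 (0.627). Nr3c2 was closest to Tns2 (0.866), Npdc1 (0.74) and Nat8f3 (0.726), and Hsd11b1 to Adgrl4 (0.712), Cck (0.692) and Hspa1b (0.688).

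**Figure D4:**
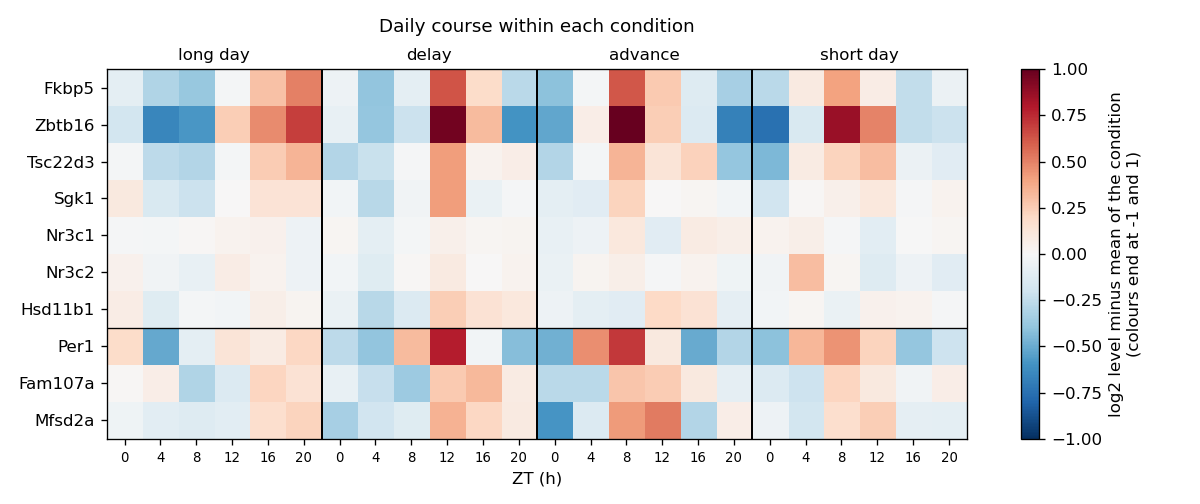
Group mean minus the mean of its condition, in log2 units, for the 7 genes and for Per1, Fam107a and Mfsd2a of the further induced list, by ZT in hours within long day, delay, advance and short day. Red is above and blue below the condition's mean. Fkbp5 and Zbtb16 are reddest at ZT20 of long days, ZT12 of delay, and ZT8 of advance and short days, while Nr3c1 is pale throughout. Without the doubted arrays both would be highest under long days at ZT16, where 1 array each reads 10.03 for Fkbp5 and 9.93 for Zbtb16.

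A list of 30 further genes known to be induced by glucocorticoids, all measured, showed how far the pattern reached. With clock time matched none of the 30 differed in course between long and short days (limma), against 0.467% of all genes. There 9 had an unadjusted p under 0.05, as did 1674 of all 18193 genes. With ZT matched 7 of the 30 differed, against 4.3% of all genes. The 4 of these with the smallest p were Fam107a (limma adjusted p = 5.79e-05), Per1 (0.000204), the MAP kinase phosphatase gene Dusp1 (0.000708) and Angptl4 (0.00217). In their own conditions 3 of the 30 varied over long days (1.63% of all genes did), 6 over delay (1.52%), 7 over advance (2.58%) and 7 over short days (8.91%). Mfsd2a, a lipid transporter, was the 1 gene of the list whose advance course differed from short days (limma adjusted p = 0.00269), against 0.308% of all genes.

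The evening difference of delay from short days was positive in each of the 6 of the 30 that passed, against 5.16% of all genes higher, with a list median of 0.17 beside 0.06 over all genes. They were Per1 (0.69 ± 0.16, limma adjusted p = 0.0162), the transcription factor gene Cebpd (0.63 ± 0.18, 0.0359), the metallothionein Mt1 (0.56 ± 0.14, 0.0268), Fam107a (0.44 ± 0.08, 0.00258), the Krüppel-like factor Klf9 (0.41 ± 0.12, 0.0406) and Mfsd2a (0.39 ± 0.09, 0.0162). Fam107a was also the 1 of the 30 to pass ZT12 minus ZT8, by 0.74 ± 0.12 (limma adjusted p = 0.00855). In delay Fam107a read 11.93 and 11.83 at ZT8 and 12.51 and 12.50 at ZT12, against 12.72 and 12.51 at ZT8 and 12.46 and 12.53 at ZT12 under short days. As for Fkbp5, its delay level was lower than that of short days at ZT8, but at ZT12 the groups overlapped.

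Averaged over the day the list did not move one way: 7 of the 30 rose and 7 fell under long days, 46.7% of the list, the same share as among all genes, with a median change of 0.03. The gap junction gene Gjb6 rose by 0.72 ± 0.06 (limma adjusted p = 7.9e-12) and the receptor tyrosine kinase inhibitor Errfi1 by 0.38 ± 0.04 (2.4e-10). The largest fall was that of Cebpd, -0.70 ± 0.08 (limma adjusted p = 8.61e-09), and the cell cycle inhibitor Cdkn1a changed by -0.38 ± 0.04 (3.82e-09). In advance 7 of the 30 were higher and 3 lower than in delay, against 10.3% of all genes higher and 13.8% lower.

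**Figure D5:**
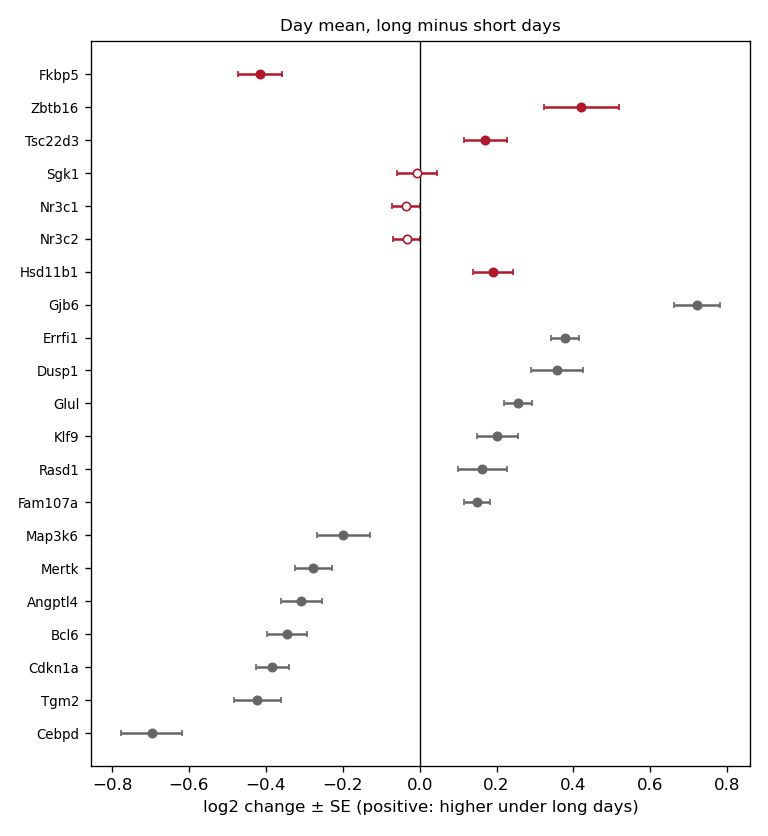
Change of the day mean, long minus short days, in log2 units with SE, for the 7 genes (red) and for the 14 further induced genes that passed (grey). Filled marks passed an adjusted p of 0.05. Fkbp5 at -0.41 and Zbtb16 at 0.42 lie on opposite sides of 0, and the grey genes run from -0.70 to 0.72.

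Of 16 chaperones and co-regulators of the receptor 11 were measured, and 4 fell under long days with none higher, against 29.1% of all genes lower and 17.6% higher, so the share that fell lies near that of all genes. These were the chromatin remodeller Smarca4 (-0.45 ± 0.05, limma adjusted p = 7.43e-10), the coactivator Ncoa3 (-0.42 ± 0.05, 4.62e-08), the co-chaperone Bag1 (-0.25 ± 0.03, 1.8e-07) and the co-chaperone Stip1 (-0.42 ± 0.09, 0.000337). The list's median, -0.02, was near that of all genes. Bag1 was the 1 gene of the list with a passing evening difference in delay, 0.28 ± 0.08 (limma adjusted p = 0.0307, against 6.11% of all genes), and Fkbp4, the immunophilin that counters Fkbp5 on the receptor, the 1 whose course differed between long and short days with ZT matched (0.0357, against 4.3%).

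Of 8 further genes of steroid handling 7 were measured, and H6pd, which supplies the cofactor of Hsd11b1, was the only one past the threshold in any comparison (-0.15 ± 0.05 for long minus short days, limma adjusted p = 0.00549, where 46.7% of all genes passed). Of 9 genes of the stress axis 1 rose and 4 fell under long days, beside 17.6% of all genes higher and 29.1% lower, and 5 of 9 is near the 46.7% of all genes that passed. Vasopressin (Avp) rose by 0.44 ± 0.13 (limma adjusted p = 0.0041), and the corticotropin-releasing hormone receptor Crhr1 had the smallest p among those that fell (-0.30 ± 0.05, 1.69e-05), followed by Crhbp (-0.21 ± 0.06, 0.00207) and Pcsk1 (-0.19 ± 0.05, 0.00313).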

How the data were processed

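RNA of 48 pools was measured on expression arrays. The authors deposited log2 values per probe set; RMA and R 2.8.0 are named in the submitters' processing notes. These were used without renormalization, and the number of arrays limits the precision. Of 45101 probe sets 34958 carry 1 gene symbol, and 1 probe set per gene gave 18193 genes. A mean for each of 24 groups was fitted to all genes with limma 3.58.1 in R 4.3.3. The fit left 24 residual degrees of freedom and used empirical Bayes with a trend. Tests were two-sided, with Benjamini-Hochberg adjustment over all genes and a threshold of 0.05. On simulated data they recovered 99 of 100 genes shifted by 1 log2 unit between long and short days, and called 7 others. That shift is larger than any day-mean change of the 7 genes, so recovery of smaller changes was not tested. The genes and lists were chosen with earlier results of these data known. Genes named besides the 7 are up to 4 per list and comparison by smallest p, and those most correlated with a member; other genes of a small passing set were named after their values were seen. Replicate numbers were checked for pairing: the median correlation of replicate differences between 2 times was 0.238 (long days), 0.273 (delay), 0.0698 (advance) and 0.0328 (short days). Not every pair exceeded 0.1, so no block was used. Promoter windows and coordinates are RefSeq's (GRCm38.p6). Alternatives were other probe sets, blocks, moderation, covariates, subsets and each array left out.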

Additional observations from a re-analysis of the deposited data

Results flagged for a closer look

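Each of these results is a test of a difference between groups in the same contrast, from limma over all 18193 genes. The daily course differed between long and short days with ZT matched for Fkbp5 (adjusted p = 4.16e-05), Zbtb16 (5.99e-05), Tsc22d3 (0.000651) and Nr3c2 (0.0331), and with clock time matched for Fkbp5 (0.00269). The clock-time call of Fkbp5 was lost with these conditions alone in the fit (limma adjusted p = 0.0656). The step from ZT8 to ZT12 was larger in delay than under short days for Fkbp5 (limma adjusted p = 0.031), a call that its other probe sets did not repeat (0.998 and 0.983). The rise of ZT12 and ZT16 over the earlier times was larger in delay than under short days for Fkbp5 (limma adjusted p = 0.00216), Nr3c2 (0.0335) and Zbtb16 (0.0462). The whole course differed between delay and short days for Fkbp5 (limma adjusted p = 0.00163), Zbtb16 (0.0106) and Nr3c2 (0.0171). Between advance and delay it differed for Fkbp5 (limma adjusted p = 0.00176) and Zbtb16 (0.00497).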

How the results depend on the processing

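Counts here are of the 7 genes that passed, by limma over all genes. With only the conditions compared in the fit, 1 gene varied over short days, 1 over long days and 2 over delay, 0 differed in course between long and short days by clock time, and 1 differed in course between advance and short days. Without long-day ZT16 and ZT20 replicate 2 the clock-time count was 2 and the delay ZT8 to ZT12 step 2. That step gave 0 with no trend on the mean level, 0 with all probe sets tested and 0 without the arrays high in growth hormone or prolactin. The delay evening difference gave 1 with all probe sets tested, 1 with the actin covariate and 1 without those arrays, and advance minus delay gave 1 with the actin covariate. With each array left out in turn the counts were 4 for long minus short days, 3 to 4 for the daily course of short days, 2 to 4 for that of long days, 2 to 4 for delay and 3 for advance; 3 to 5 for long against short course by ZT and 1 to 3 by clock time; 0 to 1 for the step, 1 to 3 for the evening difference and 2 to 3 for the delay course; 0 for both advance comparisons with short days, 2 to 4 for advance minus delay and 1 to 2 for the advance against delay course. Among results past the threshold in the report or under the alternative, signs turned only in other probe sets: Fkbp5 0.01658 and 0.08595, Zbtb16 -0.494, Tsc22d3 -0.1464 and -0.05356 and Nr3c1 0.3421 for long minus short; Fkbp5 -0.006613 and Zbtb16 -0.05306 for the evening difference; Zbtb16 -0.2062 and Nr3c1 0.5473 for advance minus delay. Signs of values with no call on either side turned too: Sgk1 long minus short (-0.0073) reached 0.023 over the alternatives and 0.042 with an array left out, and Nr3c1, Nr3c2 and Sgk1 in comparisons with advance, and some other probe sets of Fkbp5, Tsc22d3 and Nr3c1, turned likewise. The replicate block gave Fkbp5 an adjusted p of 1.36e-08 for long minus short (limma) and changed no call of the 7 genes; a replicate block within each condition brought Tsc22d3 past the threshold in the advance against delay course (0.0305). Over these alternatives, all genes called ranged from 5006 to 8994 for long minus short (8502 in the report), 89 to 2838 for the short-day course (1621), 83 to 440 for long days (296), 92 to 662 for delay (276), 320 to 1324 for advance (470), 271 to 1265 by ZT (782), 31 to 138 by clock time (85), 0 to 19 for the step (7), 56 to 2388 for the evening difference (1111), 63 to 867 for the delay course (335) and 1895 to 5217 for advance minus delay (4381). The cause of these shifts was not tested. With 2 arrays per group, a call near the threshold often rested on 1 array.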
